A study of Mus musculus with 2 samples.

Results

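Purine salvage and nucleotide disposal was described through 10 genes, chosen by name for their roles in nucleoside transport, nucleotide breakdown, adenylate balance and the recovery of bases and nucleosides. They were 10 of the 43346 Ensembl genes measured, of which 21474 were protein-coding. The RNA came from erythroblasts, nucleated precursors of red cells, taken from mouse fetal liver at embryonic day 14.5 as cells positive for Ter119, an erythroid surface marker. Both sexes were pooled, the health state is given as unknown, and no strain, genotype or treatment is named. There was 1 group of 2 poly(A) RNA libraries sequenced as paired ends, labelled biological replicates 1 and 2 and called library 1 and library 2 here. They have separate biosamples but a shared donor entry, so their spread may be technical, and with 1 group no condition could be compared.

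Cells make purine nucleotides either from small precursors, the de novo route, or by salvage, in which ready-made bases and nucleosides are brought in and joined to ribose phosphate. Mature red cells lack the full de novo route and depend on salvage to hold their ATP. As an erythroblast matures its RNA is broken down, and the pyrimidine nucleotides set free are removed by a nucleotidase, while AMP can be deaminated to IMP or dephosphorylated to adenosine.

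By TPM over all transcript models the transporter gene Slc29a1 had the highest level at 95.55 TPM, followed by the nucleotidase gene Nt5c3 and the AMP deaminase gene Ampd2. This order depended on short models: over models of 1000 bases or more Slc29a1 had 13.1 TPM, overlapping Ampd2 at 12.6 TPM, and both were above Nt5c3 at 6.49 TPM in the mean. By CPM, without length correction, Ampd2 led at 75.2 above Slc29a1 at 73.2. Aprt and Ampd3 lay lower, and Hprt, Ada, Adk, Pnp and Ak1 each stayed under 1 TPM in both libraries. TPM is a relative transcript level corrected for transcript length, so it can be compared between genes. The 5 members at 1 TPM or more in both libraries compare with 10.4% of all Ensembl genes and 20.0% of protein-coding genes past the same limit. The median of the members' mean levels was 2.195 TPM, beside 0.02 TPM over all protein-coding genes and 5.02 TPM over those detected. Levels below are means ± SD over the 2 libraries (n = 2), and positions are in mm10.

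**Figure D1:**
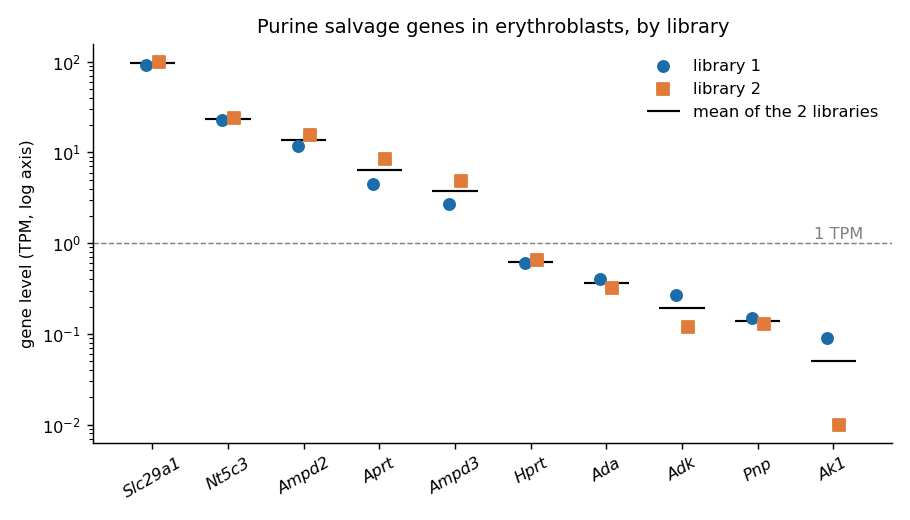
TPM of the 10 members (log axis) in library 1 (circles) and library 2 (squares), with the mean of the 2 libraries as a bar and a dashed line at 1 TPM. The 5 genes on the left lie above the line in both libraries, from Slc29a1 at 95.55 TPM to Ampd3 at 3.765 TPM, and the 5 on the right lie under it, down to Ak1 at 0.05 TPM.

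The libraries held 51190552 and 44256272 counts after rounding. The globin genes took 86.0% of TPM in library 1 and 84.4% in library 2, so without them every TPM value would be 7.15 and 6.42 times higher. On that scale Hprt, Ada and Adk would average 4.23, 2.46 and 1.35 TPM. All 7 measured erythroid markers were detected, led by Slc4a1, the anion exchanger, and summed to 1321 and 1655 TPM. Markers of the 7 other cell types summed to between 1.83 and 10.99 TPM in library 1 and between 1.86 and 17.18 TPM in library 2. In bulk RNA, fewer cells of a type and less RNA per cell cannot be told apart.

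Slc29a1 encodes the equilibrative nucleoside transporter ENT1, which lets nucleosides such as adenosine cross the plasma membrane down their gradient. The gene lies on the minus strand at chr17:45585200-45599606. It had 92.16 TPM in library 1 and 98.94 TPM in library 2, a mean of 95.55 ± 4.79 TPM, from 3823 and 3177 counts. The mean placed it at percentile 99.0 of protein-coding genes, rank 212. Slc29a1 alone held 68.1% and 64.8% of the summed TPM of the 10 members, which was 135.26 and 152.71 TPM. Models under 1000 bases held 85.7% and 86.7% of the gene's TPM, so this share and the rank depend on them.

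The level of Slc29a1 was spread over 25 annotated transcript models with several first exons. The model Slc29a1-216, 357 bases long with its mRNA end marked as not found, has a first exon of its own at chr17:45596990-45597066 and took 25.0% and 34.5% of the gene's expected counts. Since TPM divides by length, the same model took 49.3% and 65.9% of the gene's TPM. A group of 10 models with first exons within chr17:45595482-45595602 took 58.1% of the counts in library 1 and 46.7% in library 2. The 4 further models starting within chr17:45592179-45592840 took 14.8% and 16.1%. Thus most counts fell to the 10-model group in library 1, and no group held more than 50% in library 2.

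The promoter windows matched to the 2 first exons with the most counts of this transporter are shown for that reason. Each window is RefSeq sequence of GRCm38.p6 from 250 bases before to 50 bases after an annotated start, written 5′ to 3′ on the gene's strand, and capitals mark every match on either strand to AGATAA or its variant TGATAA (words read by GATA factors), CACCC (read by KLF factors), CCAAT (the CCAAT box), TATAAA (a core promoter box), CACGTG (an E-box) and TGACTCA (read by AP-1 and NF-E2). The first, minus strand at chr17:45597102-45597401, belongs to a RefSeq start 85 bases upstream of the start of Slc29a1-216 and ends before that start. The second, minus strand at chr17:45595481-45595780, has its start 11 bases from that of Slc29a1-212, a model of the 10-model group.
Slc29a1 first window: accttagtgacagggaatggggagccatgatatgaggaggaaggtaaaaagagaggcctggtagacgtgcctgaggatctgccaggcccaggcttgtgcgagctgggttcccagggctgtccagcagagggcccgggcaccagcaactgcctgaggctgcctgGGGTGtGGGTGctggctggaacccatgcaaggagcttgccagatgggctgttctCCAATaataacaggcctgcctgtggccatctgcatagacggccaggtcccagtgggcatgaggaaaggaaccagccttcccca
Slc29a1 second window: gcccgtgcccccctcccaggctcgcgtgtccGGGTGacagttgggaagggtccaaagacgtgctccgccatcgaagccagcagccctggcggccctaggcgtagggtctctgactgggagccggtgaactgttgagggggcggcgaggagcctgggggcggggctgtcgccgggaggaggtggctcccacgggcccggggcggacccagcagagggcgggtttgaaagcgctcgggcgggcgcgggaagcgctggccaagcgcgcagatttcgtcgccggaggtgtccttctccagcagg
The first window had 60.3% G and C and held a pair of CACCC words, here as the reverse complement GGGTG. It also held a CCAAT word at position -33 from the RefSeq start. The second had 72% G and C and held a single CACCC word, also as GGGTG. Of all 32851 promoter windows, 57.5% held CACCC and 37.4% held CCAAT. The GATA words were in neither, and 18.6% of all windows held at least 1 of them.

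Nt5c3 encodes a cytosolic nucleotidase that strips phosphate from the pyrimidine nucleotides CMP and UMP, and its loss in humans causes a haemolytic anaemia. The gene lies on the minus strand at chr6:56882400-56923932. It had 22.57 TPM in library 1 and 23.69 TPM in library 2, a mean of 23.13 ± 0.792 TPM from 1540 and 894 counts, at percentile 96.6. TPM was nearly level between the libraries while the counts were not. Models with the upstream first exon at chr6:56923672-56923932 took 99.7% of the counts in each library, and the start at 56901886 took 0.310% and 0.287%. Among the models with the upstream exon, the coding model Nt5c3-201 took 70.5% of the counts in library 1 and 48.8% in library 2. The short non-coding models Nt5c3-207 (387 bases) and Nt5c3-205 (418 bases) together held the largest part of the TPM. Nt5c3-207 took 38.11% and 40.87% of it, and Nt5c3-205 took 25.38% and 39.1%.

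Of the AMP deaminase genes, whose enzymes turn AMP into IMP, Ampd2 was the more abundant. Ampd2 lies on the minus strand at chr3:108074062-108086651 and had 11.86 TPM in library 1 and 15.54 TPM in library 2 (13.7 ± 2.60 TPM, percentile 94.8, 3512 and 3623 counts). Ampd3, which encodes the isoform found in mature red cells, lies on the plus strand at chr7:110768206-110812405 and had 2.71 and 4.82 TPM (3.765 ± 1.49 TPM, percentile 88.3, 536 and 914 counts). Ampd2 exceeded Ampd3 4.38-fold in library 1 and 3.22-fold in library 2, a mean of 3.80 ± 0.815. The values of both genes were lower in library 1, and the ranges of the 2 genes did not overlap. Ampd1, the muscle gene of the same family, had 0 and 2 counts.

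Ampd2 counts were divided between 2 first exons, in different shares in the 2 libraries. The models Ampd2-202 and Ampd2-203, with the upstream first exon at chr3:108086218-108086651, took 37.6% of the counts in library 1 and 19.2% in library 2. Ampd2-201, starting downstream, took 60.8% and 79.6%. In both libraries the downstream start held the larger share. The division of reads among models that share most of their exons is an estimate, and these shares have no test here.

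**Figure D2:**
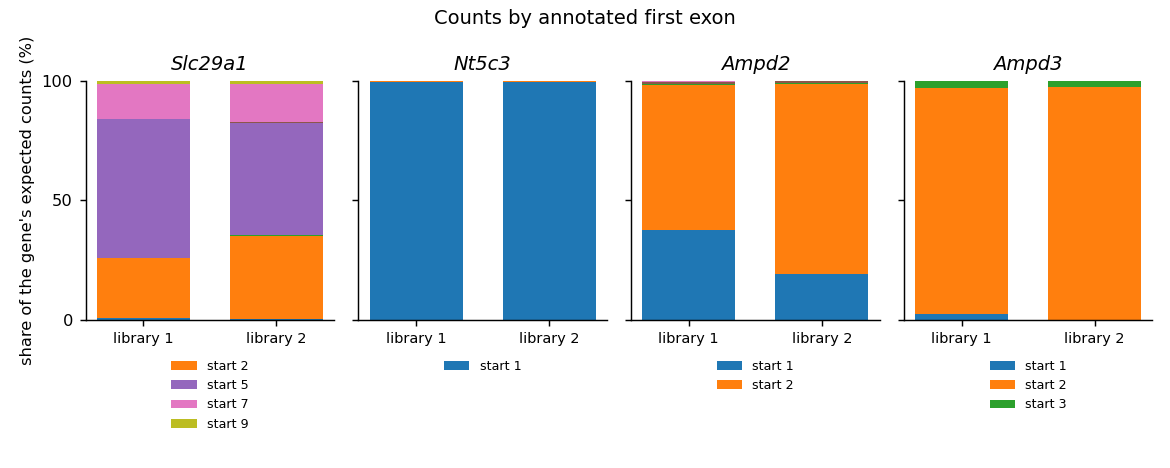
Share of each gene's expected counts (percent, stacked to 100) by annotated first exon in library 1 and library 2, with starts numbered along the gene from its 5′ end and starts under 1% in library 1 and library 2 left out of the legend. Nt5c3 and Ampd3 had over 94% of counts in 1 group of overlapping first exons in each library. In contrast, Ampd2 had 37.6% and 19.2% at its upstream start and Slc29a1 25.0% and 34.5% at its second.

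Ampd3 used mainly 1 group of overlapping first exons. Its models Ampd3-201 and Ampd3-202 start at 110772604 and 110772788, and their first exons overlap. Together these models took 94.6% of the counts in library 1 and 97.7% in library 2. A start at 110773672 took 3.11% and 2.30%, and the most upstream start, at 110768206, took 2.28% and 0%. Within the main group, the full coding model Ampd3-201 took 40.5% and 65.5% of the counts. The shorter Ampd3-202, annotated as a retained intron, took 54.1% and 32.2%. The model with the most counts therefore differed between the libraries, while Ampd3-202 led by TPM in both, with 67.14% and 49.06%. Ampd3-201 had 0.56 TPM in library 1 and 1.99 TPM in library 2. The level of the gene, its detection and its ratios to other members thus include the retained-intron model.

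The windows of the main Ampd2 and Ampd3 starts are set side by side because these genes encode enzymes of the same reaction at different levels. Each window covers a start in the first-exon group with the most counts. The Ampd2 window is on the minus strand at chr3:108085353-108085652, 3 bases from the start of Ampd2-201. The Ampd3 window is on the plus strand at chr7:110772354-110772653, at the start of Ampd3-201. The start of Ampd3-202, at 110772788, lies downstream of the Ampd3 window. A second Ampd3 window, on the plus strand at chr7:110773386-110773685, belongs to the little-used start and is shown because it is the only one of the 3 Ampd3 windows with a GATA word.
Ampd2 main start: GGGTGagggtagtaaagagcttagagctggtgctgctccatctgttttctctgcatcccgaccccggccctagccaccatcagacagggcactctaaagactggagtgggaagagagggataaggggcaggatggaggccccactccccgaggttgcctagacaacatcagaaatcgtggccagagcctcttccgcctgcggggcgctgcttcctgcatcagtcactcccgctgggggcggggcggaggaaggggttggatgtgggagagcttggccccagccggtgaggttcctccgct
Ampd3 main start: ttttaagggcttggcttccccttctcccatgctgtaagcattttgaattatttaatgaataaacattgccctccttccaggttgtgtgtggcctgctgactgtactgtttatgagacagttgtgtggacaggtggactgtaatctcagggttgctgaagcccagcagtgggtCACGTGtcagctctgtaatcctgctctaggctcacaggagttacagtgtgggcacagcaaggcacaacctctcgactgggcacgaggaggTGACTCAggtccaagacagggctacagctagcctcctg
Ampd3 minor start: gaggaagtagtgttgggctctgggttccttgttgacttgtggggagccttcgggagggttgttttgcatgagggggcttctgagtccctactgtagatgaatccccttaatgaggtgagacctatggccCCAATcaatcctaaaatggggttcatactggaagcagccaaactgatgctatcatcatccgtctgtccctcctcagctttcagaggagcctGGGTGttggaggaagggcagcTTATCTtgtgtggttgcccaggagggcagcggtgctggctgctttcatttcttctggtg
The Ampd2 window had 62.3% G and C and held a CACCC word, as GGGTG, at its first base, position -250. The main Ampd3 window had 51.3% G and C, a CACGTG word at position -78, which 7.15% of all windows held, and a TGACTCA word at position 12, which 5.20% held. The minor Ampd3 window held AGATAA on the opposite strand at position -9, with CACCC, also on the opposite strand, at -30 and CCAAT at -121. None of the words marked in the 5 windows above overlapped another.

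The base salvage enzymes join a free base to ribose phosphate, Aprt for adenine and Hprt for hypoxanthine and guanine. Aprt, on the minus strand at chr8:122574637-122576890, had 4.45 TPM in library 1 and 8.49 TPM in library 2 (6.47 ± 2.86 TPM, percentile 91.4, 315 and 472 counts). Hprt, on the plus strand at chrX:52988137-53021659, had 0.60 and 0.65 TPM (0.625 ± 0.0354 TPM, percentile 75.2, 67 and 57 counts). Aprt exceeded Hprt 7.42-fold in library 1 and 13.1-fold in library 2, a mean of 10.2 ± 3.99. Aprt differed between the libraries, while Hprt was nearly level. Each gene has 1 transcript model in the tables.

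Of the members' windows with a GATA word, only that of Hprt, a gene widely used as a housekeeping control, was matched to its gene's most used first exon. The Hprt window is shown for that reason. It lies on the plus strand at chrX:52987828-52988127, with its start 59 bases upstream of that of Hprt-201, and ends before the latter.
Hprt window: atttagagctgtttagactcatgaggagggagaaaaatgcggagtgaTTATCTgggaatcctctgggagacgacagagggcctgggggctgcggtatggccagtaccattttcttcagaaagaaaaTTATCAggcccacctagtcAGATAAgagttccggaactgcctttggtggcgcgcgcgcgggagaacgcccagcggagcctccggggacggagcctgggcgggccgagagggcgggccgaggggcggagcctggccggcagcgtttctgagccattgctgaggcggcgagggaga
The window held AGATAA on each strand and TGATAA on the opposite strand. Over the 10 members RefSeq gave 24 windows, of which 3 held a GATA word, 1 each in Slc29a1, Ampd3 and Hprt, against 18.6% of all windows. The Nt5c3 window covers the start with 0.310% and 0.287% of its counts, and windows at the upstream first exons of Nt5c3 and Ampd2 were not analysed here. CACCC was in 18, CCAAT in 7, TGACTCA in 3, CACGTG in 2 and TATAAA in 1. Over all windows the shares were 57.5%, 37.4%, 5.20%, 7.15% and 13.6%, in that order. Some members have several windows, and those of Ampd2 overlap each other, so the windows are not independent. A match says only that the letters are present.

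Adenosine can be deaminated to inosine by the enzyme of Ada or phosphorylated to AMP by that of Adk. Ada, on the minus strand at chr2:163726584-163750239, had 0.40 TPM in library 1 and 0.32 TPM in library 2 (0.36 ± 0.0566 TPM, percentile 70.7, 61 and 38 counts). Adk, on the plus strand at chr14:21052574-21448569, had 0.27 and 0.12 TPM (0.195 ± 0.106 TPM, percentile 66.0, 44 and 15 counts). Ada was above Adk in both libraries, 1.48-fold in library 1 and 2.67-fold in library 2 (2.07 ± 0.838). Ada reached 0.148 and 0.0664 of the level of Ampd3, the red cell AMP deaminase gene.

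Pnp and Ak1 had the lowest mean levels, although in library 2 Adk, at 0.12 TPM, lay under Pnp. Pnp encodes purine nucleoside phosphorylase, which splits inosine and guanosine into base and ribose phosphate. At chr14:50944302-50965237 on the plus strand, it had 0.15 TPM in library 1 and 0.13 TPM in library 2 (0.14 ± 0.0141 TPM, percentile 63.4, 24 and 27 counts), or 0.375 and 0.406 of the level of Ada. Its row was found by its transcripts Pnp-201 and Pnp-202, since its gene identifier carries another name in the later annotation. Pnp2, a neighbouring copy, had 0 counts in both libraries. Ak1 encodes the cytosolic adenylate kinase that balances AMP, ADP and ATP, and its loss in humans also causes a haemolytic anaemia. At chr2:32621758-32635058 on the plus strand, Ak1 had 0.09 and 0.01 TPM (0.05 ± 0.0566 TPM, percentile 56.3). Its counts were 16 in library 1, with a 95% Poisson interval of 9.15 to 26.0, and 1 in library 2, with an interval of 0.0253 to 5.57. The 16 counts fell to Ak1-202 and the single count to Ak1-201, which start at different first exons.

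In the order of mean TPM, 7 of the 9 neighbouring pairs did not overlap between their libraries. Aprt overlapped Ampd3, and Adk overlapped Pnp, so neither pair was ordered beyond its spread. With 2 libraries a gap between ranges is a description and not a test, and by CPM only 4 pairs were separated. By posterior mean TPM 6 pairs did not overlap, and Ak1, at a mean of 0.175, lay above Pnp at 0.15. The order of Pnp and Ak1 therefore depended on the estimate used. The widest step between neighbours was from Ampd3 to Hprt, 6.02-fold, which divided the members above 1 TPM from those below. Slc29a1 stood 4.13-fold above Nt5c3.

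The lead of Slc29a1 and the second place of Nt5c3 rested partly on short transcript models. Models under 1000 bases held 85.7% and 86.7% of the TPM of Slc29a1 but 49.4% and 48.8% of its counts. For Nt5c3 they held 63.5% and 80.0% of TPM and 23.4% and 43.0% of counts. Over models of 1000 bases or more, Slc29a1 had 13.13 TPM in library 1 and 13.12 TPM in library 2, beside 10.7 and 14.4 TPM for Ampd2 and 8.24 and 4.74 TPM for Nt5c3. On that scale Slc29a1 and Ampd2 overlapped. With counts divided by the length of the longest coding model, Slc29a1 led again at 33.1 ± 1.23 CPM per kb, above Ampd2 at 20.6 ± 2.38, Nt5c3 at 15.0 ± 4.31, Aprt at 9.69 ± 3.59 and Ampd3 at 3.79 ± 1.72. Both of these length corrections were chosen after the data were seen, and both placed Ampd2 above Nt5c3 in the mean. The 5 members under 1 TPM had no counts on short models, so leaving those out did not move their TPM.

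**Figure D3:**
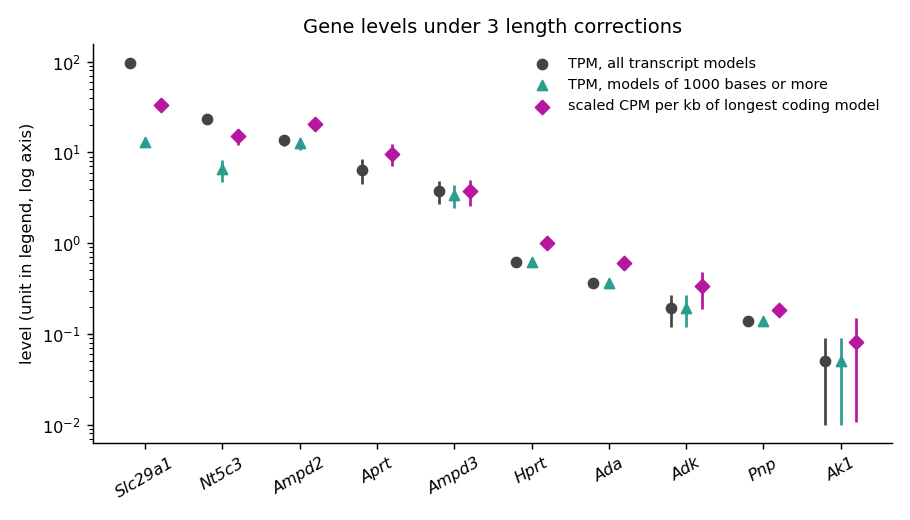
Mean level of each member (log axis, unit by symbol) as TPM over all transcript models, as TPM over models of 1000 bases or more and as scaled CPM per kb of the longest coding model; vertical lines span library 1 and library 2, and Aprt has no second symbol because its only model is 866 bases long. Slc29a1 moved from 95.55 to 13.1 TPM when short models were left out, while Hprt stayed at 0.625 TPM.

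The 2 libraries were compared to see how far each level could be trusted. An exact conditional binomial test with Benjamini-Hochberg adjustment was run on 10955 genes with 10 or more counts. It compares these libraries, not conditions, and covers counting error only. At an adjusted p under 0.05, 44.9% of tested genes differed, 22.5% higher and 22.4% lower in library 1. Of the 10 members, 6 differed, 3 in each direction, and against that background the count is not a result about the members. In the text that follows, ratios are library 1 over library 2 of scaled CPM, counts relative to the effective library size, since the TPM of genes with 100 or more counts was shifted by a median of -0.16 on the log2 scale and their scaled CPM by -0.0024.

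Ampd3 and Aprt differed most among the well-counted members. Ampd3 had 10.5 scaled CPM in library 1 and 20.5 in library 2, a log2 ratio of -0.96 (exact binomial test, adjusted p = 3.01e-34). Aprt had 6.19 and 10.6 scaled CPM, a log2 ratio of -0.77 (exact binomial test, adjusted p = 1.36e-12). Both ratios were wider than the 90th percentile of the absolute log2 ratio, 0.656, over the 5257 genes with 100 or more counts in each library. Ampd2 was lower in library 1 too, 69.1 against 81.3 scaled CPM, a log2 ratio of -0.24 (exact binomial test, adjusted p = 6.53e-11), but this was no wider than the median absolute ratio of those genes, 0.24. The summed TPM of the macrophage markers was also lower in library 1, 10.99 against 17.18 TPM. Of these 7 markers 3 were called lower, the uncalled ones lay in both directions, and none was at 0 counts. The erythroid markers summed to 1321 against 1655 TPM, with 3 of 7 called higher and 4 lower in library 1. Sums of the hepatocyte, neutrophil, megakaryocyte and lymphoid markers were also lower in library 1, while early progenitor and endothelial sums were nearly level. All these sums carry the TPM shift given above. The part of any cell type in the differences of the members was not tested.

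Nt5c3, Adk and Ak1 were higher in library 1. Nt5c3 had 30.3 scaled CPM in library 1 and 20.1 in library 2, a log2 ratio of 0.59 (exact binomial test, adjusted p = 7.86e-22), within the 90th percentile above. By TPM its ratio was 0.953, on the other side of 1. Adk had 0.865 and 0.337 scaled CPM, a log2 ratio of 1.36 (exact binomial test, adjusted p = 0.00331). The Ak1 ratio was 14.0 with a 95% counting interval of 2.18 to 588 (exact binomial test, adjusted p = 0.00154). Slc29a1, at 75.2 and 71.3 scaled CPM, had a log2 ratio of 0.08 (exact binomial test, adjusted p = 0.0616), and its ratio of 1.05 had an interval of 1.01 to 1.11. With DESeq2 size factors it passed, at an adjusted p of 0.0414 in the same exact binomial test. The ratios of Ada (0.49), Hprt (0.04) and Pnp (-0.36), on the log2 scale, did not pass, with adjusted p values of 0.184, 0.968 and 0.523 in the exact binomial test.

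**Figure D4:**
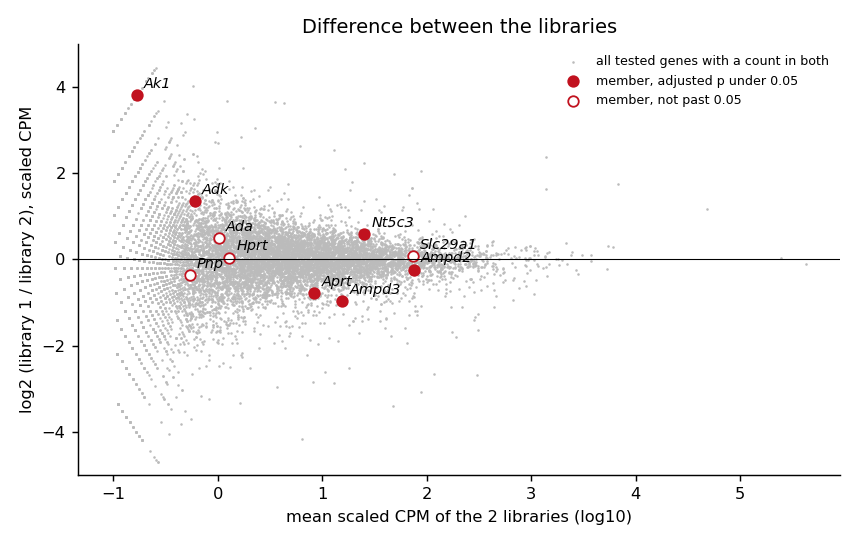
Log2 ratio of scaled CPM, library 1 over library 2, against the mean scaled CPM (log10) for the tested genes with a count in both libraries (grey); members past an adjusted p of 0.05 are filled and the others open. Nt5c3, Adk and Ak1 lie above 0 and Ampd2, Aprt and Ampd3 below it, and the grey cloud widens to the left, where counts are few.

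The other genes of purine metabolism were described through 8 lists holding 71 genes, 7 of them members. At 1 TPM in both libraries 18 of the 71 were detected. This count and those of each list below stand beside 20.0% of all protein-coding genes past the same limit. Nothing particular to a list is read from them. In the degradation and deamination list 4 of 12 genes were detected. Gmpr, the GMP reductase gene that returns GMP to IMP, led with 172.83 TPM in library 1 and 145.57 TPM in library 2 (159.2 ± 19.3 TPM), above Slc29a1 in both libraries. Ampd2 and Ampd3 followed. Xdh, for xanthine oxidoreductase, had 2 and 0 counts, and Uox, for urate oxidase, had none.

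Among the nucleotidases 4 of 11 were detected, with Nt5c3 first by TPM over all models. Nt5dc2, of the nucleotidase domain family, had 6.83 TPM in library 1 and 17.05 TPM in library 2, and Nt5c, for a cytosolic deoxynucleotidase, averaged 6.085 ± 1.80 TPM. The spread of Nt5dc2 was far wider than that of Nt5c3. Nt5c1a and Nt5c1b, which encode AMP-preferring enzymes, had 0 counts, and Nt5e, for the surface enzyme CD73, had 2 and 0. Of the transporters 2 of 8 were detected, Slc29a1 and Slc43a3, a purine base transporter at 8.335 ± 0.375 TPM. Slc29a3 came next at 0.025 TPM, and 3 of the 8 had 0 counts.

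In the kinase list 3 of 10 were detected. Guk1, the guanylate kinase gene, averaged 2.25 ± 0.735 TPM and Ak6 averaged 1.53 ± 0.580 TPM, both above Ak1 in each library. Ak5, Ak7 and Ak8 had 0 counts. Of the de novo genes 4 of 13 were detected, led by Paics at 5.06 ± 1.51 TPM, Impdh2 at 4.685 ± 0.460 TPM and Gart at 3.645 ± 0.148 TPM, while Adssl1 was lowest at 0.15 TPM. Every de novo gene had counts in both libraries.

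Of the clean-up genes, whose enzymes destroy non-standard or surplus nucleotides, 1 of 8 was detected in both libraries, Dctpp1 at 12.92 ± 4.38 TPM, while in library 2 alone 5 of the 8 passed 1 TPM, Samhd1 at 1.18 TPM and Itpa at 1.24 TPM among them. Nudt5 and Nudt1 followed at 1.41 and 1.035 TPM, each under 1 TPM in library 1. None of the 6 genes for sources of adenosine and adenine was detected, Ahcy being highest at 0.765 TPM, then Mat2a at 0.6 and Entpd1 at 0.045 TPM, and Mtap and Nt5e lowest at 0.005 TPM. None of the 4 adenosine receptor genes was detected, with Adora2b at 0.08 TPM and Adora2a at 0.01 TPM.

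**Figure D5:**
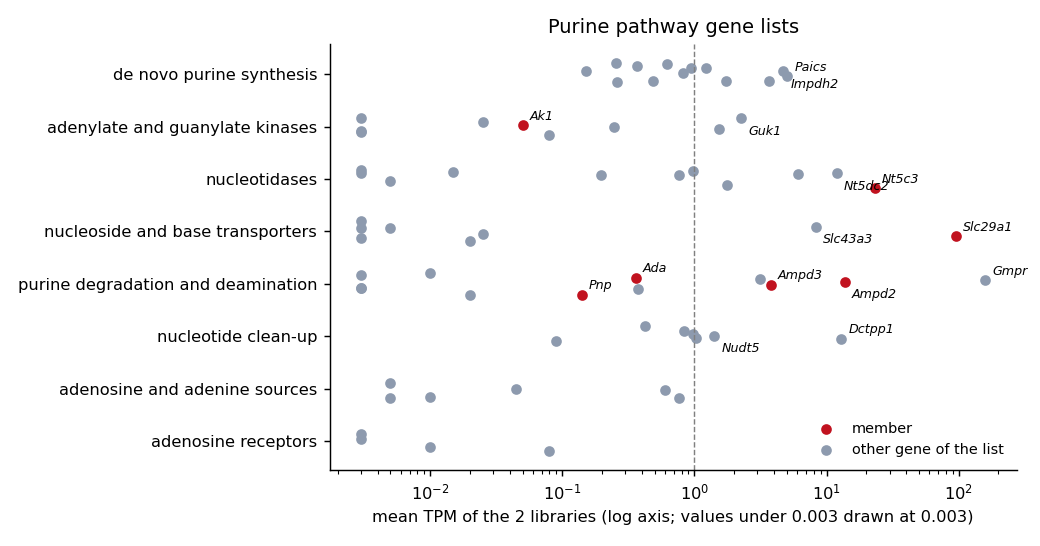
Mean TPM of library 1 and library 2 (log axis, values under 0.003 drawn at 0.003) for the genes of the 8 purine lists, leaving out 2 that are not reported here, with members in red and a dashed line at 1 TPM. Gmpr and Slc29a1 are the 2 genes furthest right, and the lists of adenosine sources and adenosine receptors hold no gene past the line.

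Between the libraries, the list genes differed in both directions, and these counts stand beside 44.9% of all tested genes called in either direction, 22.5% higher and 22.4% lower in library 1. By the exact binomial test, 4 of 13 tested de novo genes differed, 3 higher and 1 lower in library 1, and 5 of 5 tested kinase genes, 4 higher and 1 lower. Of the nucleotidases 4 of 8 tested genes differed, 1 higher and 3 lower. Of the degradation genes 4 of 7 differed, 1 higher and 3 lower. All 4 clean-up genes that differed, of 7 tested, were lower in library 1. Nothing particular to a list is read from these counts. For transporters 1 of 3 differed, higher in library 1, for adenosine sources 1 of 3, lower in library 1, and for receptors 0 of 1.

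The members differed in base composition. Their mean transcript GC content ran from 40.1% for Hprt, 42.4% for Adk and 44.5% for Nt5c3 to 56.4% for Ampd2 and 58.6% for Aprt. Over the 21474 protein-coding genes, 11.9% of those under 50% GC were detected, against 28.7% of those at 50% or more. Spearman's rho of GC content with mean TPM was 0.24 over the 10 members and 0.30 over the 21474 protein-coding genes, a description in which all values share the same 2 libraries. Of the 5 members under 1 TPM, Hprt, Adk and Pnp (47.6%) were under 50% GC, while Ada (52.4%) and Ak1 (55.7%) were above it. The part of base composition in the low levels of these members was not tested. All 10 members had whole expected counts in both libraries within 0.01, the form that counts take when no reads are shared out with other genes. Exons of Slc29a1, Ampd2, Pnp and Ampd3 overlap other annotated genes, on the opposite strand in each case and for Ampd3 also on the same strand. For Pnp the only same-strand overlap is with the gene that bears its row's own identifier in the later annotation. Since the strand setting is not given in the sources used here, reads in those overlaps cannot be told apart.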

How the data were processed

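Per the labels, poly(A) RNA was sequenced as paired ends; the listing deposited beside the tables names mm10 and GENCODE M4. Which aligner and quantifier were run, in which version and with which strand setting, is not given in the sources used here. Per the file headers, RSEM writes columns of these names. The deposited expected counts are the authors' estimates and were rounded to whole numbers. The authors' deposited TPM sums to the same total in each library, the deposited FPKM and posterior mean TPM served as alternatives, and the deposited percent of a gene's TPM per transcript gave transcript shares.

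Of 69691 rows, 43346 were Ensembl genes, named and placed by GENCODE M21 of the same assembly. Of 120 list and marker genes, 118 matched by gene ID, 1 (Pnp) by transcript IDs, and 1 erythroid marker was not used. Effective library sizes used edgeR 4.0.16 TMM factors (0.993 and 1.01; R 4.3.3). The spread between replicates, the edgeR biological coefficient of variation over 9043 genes, was 0.240. The exact two-sided conditional binomial test (scipy 1.17.1, Python 3.11.15) took genes with 10 or more counts over both libraries, adjusted over all 10955, with a threshold of 0.05; 5587 passed 0.05 unadjusted. Intervals (95%) cover counting error only: reads without molecular identifiers are not independent molecules. Transcript shares needed 50 or more counts in both libraries for leading models; shares of members with fewer are given as counts. Promoter windows were matched by symbol for all 10 members.

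The members, the lists and the tests were chosen with earlier results of these data known. Genes named are the members, each list's 3 highest and its lowest gene, and the highest erythroid marker, of which a few are not reported here; Ampd1, Xdh, Pnp2, Samhd1, Itpa, Nt5e and those listed at 0 counts beside them were named after their values were seen. Alternatives were other units, pseudocounts, limits, DESeq2 1.42.0 size factors, other library sizes and each library alone.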

Additional observations from a re-analysis of the deposited data

How the results depend on the processing

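No paired analysis was possible because the series holds 1 group. At 5 TPM 3 members were detected in place of 5, and 29 purine list genes passed 0.5 TPM and 8 passed 5 TPM in place of 18. Without length correction (CPM), 4 neighbouring pairs were separated in place of 7, and Ampd2 led at 75.2 CPM above Slc29a1 at 73.2. The ratio of Ampd3 to Ampd2 (0.269) was 0.202 by expected counts and 0.180 by scaled CPM per kb. Pnp over Ada (0.391) was 0.552 by expected counts, 0.317 by CPM per kb and 0.839 with a pseudocount of 1. With that pseudocount Aprt over Hprt (10.2) was 4.58, Ada over Adk (2.07) was 1.14 and Ada over Ampd3 (0.107) was 0.302, which by CPM per kb was 0.188. For these ratios the cause was not tested, except that adding 1 to levels under 1 TPM draws a ratio toward 1. No ratio changed sides of 1 under these alternatives. With each library alone, 5 members were detected and 18 to 24 list genes passed 1 TPM. The leading model was the same for 6 of 6 members, but 2 of these, Aprt and Hprt, have only 1 model and could not differ. Of 49 repeats of single-member library tests 48 kept their direction and side of the threshold, the other being Slc29a1 with DESeq2 size factors. By counts 5 of 6 leading models were shared, those of Aprt and Hprt included, the exception being Ampd3. Members under 1 TPM rest on 1 to 67 counts a library, which limits their ratios.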
